A study of Saccharomyces cerevisiae with 66 samples.

Results

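The untagged control strain of an auxin-degron collection was examined after addition of indole-3-acetic acid (IAA, an auxin) and copper sulphate, to see what the additions themselves did to the transcriptome when no protein was marked for destruction. The comparison uses 6 of the 66 libraries of the series, 3 from cultures labelled IAA and 3 from cultures labelled DMSO (dimethyl sulphoxide, the solvent). The titles call the strain WT and name a TIR ligase, the plant auxin receptor that hands a degron-tagged protein to the ubiquitin machinery. All 6 libraries came from Saccharomyces cerevisiae diploids (MATa/alpha) with the markers ho::LYS2, lys2, ura3, leu2::hisG and trp1::hisG. The his3 allele is written his3:p followed by a number that differs between the 6 libraries. No degron-tagged gene is listed for this strain, and the labels do not name the promoter that drives the ligase or say whether the libraries came from separate cultures. If they did not, the p-values cover technical spread.

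Cells were starved in potassium acetate sporulation medium, which sets off meiosis. IAA at 500 µM and CuSO4 at 50 µM went in 3 h after the shift to that medium, and the titles give 4 h. The same treatment text stands with every sample, so the labels do not state whether the DMSO cultures received copper. The effects of IAA and of copper cannot be told apart in this design. Polyadenylated RNA was counted, so fewer cells of a type and less RNA per cell cannot be told apart either. In the other 10 strains of the series a single RNA factor is targeted (the deadenylation factors CAF40, NOT5 and POP2, the poly(A)-binding protein PAB1, the decapping factors PAT1, LSM1 and DCP2, or the exonucleases XRN1, RAT1 and RRP6), with the same additions and 3 libraries per treatment. The genotype label of the CAF40 samples lists no tagged gene, so that target is taken from the titles alone.

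Yeast keeps copper within narrow limits with a pair of copper-sensing activators. Cup2, also called Ace1, binds copper and turns on the metallothioneins and superoxide dismutase, and Mac1 is active when copper is scarce and turns on the uptake genes. High-affinity iron uptake runs through a copper-containing oxidase under the Aft1 activator, and copper supply and iron transport are therefore linked. Hsf1 controls the cytosolic and mitochondrial chaperones and answers to proteins that fail to fold.

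The WT libraries held 17.4 to 20.0 M counts, and levels are given as CPM, counts per 1e6. A total of 3 counts, taken as the detection floor, stood for 0.150 to 0.173 CPM, which covers counting error only. The diploid, early meiotic label was checked against marker genes. All 10 early meiosis markers were present in every library, with a summed level of 12638 to 16224 CPM in IAA and 16114 to 17948 CPM in DMSO. Markers of haploid a cells summed to 53.9 to 77.7 CPM and those of alpha cells to 83.9 to 116 CPM. The pheromone genes MFA2 and MF(ALPHA)2 were each at 0 in 3 libraries. The largest members of these sets, STE6 (38.9 to 57.4 CPM) and SAG1 (72.0 to 103 CPM), were far above the floor in every library. Markers of haploid cells of either type (STE4, GPA1, FUS3, FAR1 and RME1) summed to 62.3 to 74.8 CPM, with none at 0 in any library. The 7 later sporulation markers summed to 126 CPM in IAA replicate 2 and 182 CPM in DMSO replicate 2, against 455 to 591 CPM in the other 4 libraries. The part of this difference in the results was not tested. Without both replicate 2 libraries, an alternative chosen after seeing the data, calls were left in the lists of copper buffering (3 higher), copper uptake (3 lower), iron uptake (1), Hsf1 chaperones (22), the tricarboxylic acid cycle (3), respiratory complexes (2), their assembly factors (2) and mitochondrial carriers (1). Calls were also left in ubiquitin and proteasome control (2 higher), acetate use and glyoxylate cycle (2 higher) and adhesins (1 higher). The same held for trehalose and glycogen (1 lower) and protein folding in the endoplasmic reticulum (1 higher). None were left in the lists of drug efflux, Gcn4 targets, thiol defence, general stress, weak acid response, aromatic amino acids and fatty acids. The lists of glycolysis, zinc, cell wall, sporulation, histones, mRNA decay and Yap1 detoxification also lost all their calls.

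Short stretches upstream of 7 of the genes that moved were chosen for printing because they hold the sequence words read by the activators named above. Other members of the same groups do not hold them in the R64 reference assembly (RefSeq). Within 500 bases of their starts there, CRS5 and SOD1 had no match to the Cup2 word, nor CTR3 and FRE7 to the Mac1 word. These absences describe the reference, and the bases of this strain at those genes were not read. The printed stretches come from the same assembly, on the coding strand of each gene and 5′ to 3′. The deposited table names no genome build and the strain's own bases may differ. Capitals mark matches to TTTGCTG (Cup2) in CUP1-1, TTTGCTC (Mac1) in CTR1 and FRE1, TGCACCC (Aft1) in FTR1 and, in SIS1, HSP104 and HSP78, the heat shock element of Hsf1 on either strand, which is 3 units of GAA in alternating orientation with any 2 bases between neighbours. Adjacent matches to the Hsf1 word overlap. FTR1 also holds a Mac1 word that begins 81 bases before its start. A match is a description of the letters and not evidence of binding.
CUP1-1, chrVIII:212885-213010, minus strand: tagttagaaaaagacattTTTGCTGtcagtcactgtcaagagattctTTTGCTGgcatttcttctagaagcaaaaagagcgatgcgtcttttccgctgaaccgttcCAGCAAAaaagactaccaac
CTR1, chrXVI:785858-785918, plus strand: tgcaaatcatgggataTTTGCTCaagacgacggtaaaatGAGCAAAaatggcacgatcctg
FRE1, chrXII:568267-568317, plus strand: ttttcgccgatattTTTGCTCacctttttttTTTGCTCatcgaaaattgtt
FTR1, chrV:461890-461930, minus strand: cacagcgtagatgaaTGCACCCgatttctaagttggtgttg
SIS1, chrXIV:619875-619925, minus strand: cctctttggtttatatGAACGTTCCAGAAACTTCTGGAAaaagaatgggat
HSP104, chrXII:88308-88358, plus strand: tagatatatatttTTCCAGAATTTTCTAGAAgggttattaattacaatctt
HSP78, chrIV:974453-974503, minus strand: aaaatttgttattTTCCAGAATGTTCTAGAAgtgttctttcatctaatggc

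Across the genome, 199 of 5828 tested genes (3.41%) differed between IAA and DMSO in WT at an adjusted p under 0.05, 98 of them higher with IAA (1.68%) and 101 lower (1.73%). The rises were larger than the falls: 51 genes rose at least 2-fold and 22 fell at least 2-fold. In all 199 genes the 3 IAA libraries lay on one side of the 3 DMSO libraries, where 29.5% of all tested genes did so. The genes were called on the difference between these same libraries, so their separation adds no support of its own. That also holds for the separation described for each called gene below. The median log2 change over all genes was -0.03. Within the gene lists examined, 54 of the higher genes and 30 of the lower genes had a place, and 115 called genes were in none of the 37 lists. The count depended on every library: it was 116, 85 and 148 without IAA replicate 1, 2 or 3, and 98, 107 and 118 without DMSO replicate 1, 2 or 3. It was 62 without both replicate 2 libraries, and median-of-ratios scaling changed the split to 109 higher and 74 lower.

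Of 9 tested genes of copper buffering and superoxide defence 3 rose and 1 fell, with a median change of 0.12. CUP1-1 (YHR053C), the main copper metallothionein, stood at 1831, 1668 and 1747 CPM in the IAA libraries and at 9.74, 6.34 and 7.00 CPM in the DMSO libraries. The groups stood far apart, and the ratio of their fitted levels was 231-fold. The log2 change was 7.85 ± 0.78 (SE, adjusted p = 1.37e-09), the largest rise among the tested genes with a mean of at least 10 CPM. The table has no line for the near-identical copy CUP1-2, so the value may hold reads of both. CRS5 (YOR031W), the second metallothionein, was at 32.5, 27.0 and 32.2 CPM with IAA and 4.67, 3.92 and 3.90 CPM with DMSO, a change of 2.87 ± 0.37 (adjusted p = 6.39e-07). SOD1 (YJR104C), the copper-zinc superoxide dismutase, was at 919, 632 and 770.4 CPM with IAA against 430.3, 255 and 310.4 CPM with DMSO. The SOD1 groups were clear of each other, with a change of 1.23 ± 0.23 (adjusted p = 3.07e-04). These were the 3 higher calls of the list. The 1 lower call was SCO1, which delivers copper to cytochrome oxidase, at 48.1, 50.5 and 42.3 CPM with IAA and 75.6, 72.5 and 66.0 CPM with DMSO (-0.61 ± 0.17, adjusted p = 0.0340). SCO1 missed the threshold without any single one of the 6 libraries (adjusted p 0.0563 to 0.151). The transcript of the sensor itself, CUP2, did not pass the test (0.12 ± 0.22, adjusted p = 0.863), nor did the copper chaperones ATX1 (-0.01 ± 0.23, adjusted p = 0.991) and CCS1 (-0.09 ± 0.15, adjusted p = 0.832).

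Copper uptake genes fell, 4 of 6 tested, with a list median of -1.99. CTR3 (YLR411W), a high-affinity copper transporter of the plasma membrane, was at 18.4, 19.6 and 37.1 CPM with IAA and at 1874, 1755 and 2062 CPM with DMSO. CTR1 (YPR124W), its partner transporter, was at 36.6, 50.5 and 37.5 CPM against 605, 632 and 663 CPM. Both groups of 3 were tight beside the gap between them, and the changes were -6.31 ± 0.67 for CTR3 (adjusted p = 6.51e-09) and -3.95 ± 0.47 for CTR1 (adjusted p = 8.84e-08). FRE1, the surface reductase that prepares copper and iron for uptake, was at 52.3, 67.5 and 50.8 CPM with IAA and 196, 274 and 309 CPM with DMSO (-2.18 ± 0.37, adjusted p = 7.18e-05). FRE7, a reductase of the same family, was at 7.15, 5.43 and 3.95 CPM against 16.4, 22.6 and 17.8 CPM (-1.81 ± 0.45, adjusted p = 0.0133). FRE7 missed the threshold without IAA replicate 2 or 3 or DMSO replicate 2 (adjusted p 0.0666 to 0.0763). The members that did not pass were CTR2, which exports copper from the vacuole (0.14 ± 0.14, adjusted p = 0.694), and the activator MAC1, at 38.7 to 43.5 CPM with IAA and 33.6 to 40.6 CPM with DMSO (0.12 ± 0.10, adjusted p = 0.572). REE1 was not analysed here.

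In the iron list 4 of 26 tested genes rose and 1 fell, with a median of 0.34. The high-affinity uptake pair led. FET3 (YMR058W), the multicopper ferroxidase, was at 979, 1472 and 951 CPM with IAA and 134, 183 and 244 CPM with DMSO (2.62 ± 0.51, adjusted p = 6.91e-04). FTR1 (YER145C), the iron permease that works with it, was at 764, 1376 and 734 CPM against 191, 292 and 365 CPM (1.76 ± 0.39, adjusted p = 0.00403). In both genes IAA replicate 2 was the highest library and DMSO replicate 1 the lowest. AFT1, the iron-responsive activator, was at 107, 118 and 93.6 CPM with IAA and 61.8, 68.6 and 66.0 CPM with DMSO (0.69 ± 0.20, adjusted p = 0.0406). CTH1, an mRNA-binding protein of the iron response, was at 42.8 to 45.5 CPM against 19.1 to 28.9 CPM (0.84 ± 0.25, adjusted p = 0.0436). The lower call was CCC1, which stores iron in the vacuole, at 114, 115 and 129 CPM against 182, 185 and 176 CPM (-0.60 ± 0.16, adjusted p = 0.0181).

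The siderophore genes of the same activator did not pass. SIT1 changed by 0.98 ± 0.45 (adjusted p = 0.262), FIT3 by 0.74 ± 0.34 (adjusted p = 0.253) and ARN1 by 0.25 ± 0.36 (adjusted p = 0.801). The iron calls rested on few libraries, with 1 to 3 higher calls when a library was left out and 10 higher calls in a fit to the 6 WT libraries alone. FET3 kept its call in each of those fits. FTR1 lost it without IAA replicate 2 or DMSO replicate 1 (adjusted p 0.0811 and 0.0587), AFT1 lost it without any library but IAA replicate 3 (adjusted p 0.0852 to 0.201), and CTH1 lost it without any single library (adjusted p 0.0688 to 0.247). CCC1 kept its call only without IAA replicate 3.

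The zinc list held 1 call among 11 tested genes, with a median of 0.25, where 3.41% of all tested genes were called. FET4, a low-affinity transporter of iron, copper and zinc, was at 23.4, 33.4 and 33.3 CPM with IAA and at 118, 159.7 and 188 CPM with DMSO. The groups were far apart, with a change of -2.36 ± 0.62 (adjusted p = 0.0183). FET4 missed the threshold without IAA replicate 1 or 2 or DMSO replicate 2 or 3 (adjusted p 0.0657 to 0.0958). The zinc activator ZAP1 (0.22 ± 0.24, adjusted p = 0.717) and the transporter ZRT1 (0.25 ± 0.38, adjusted p = 0.820) did not pass.

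**Figure D1:**
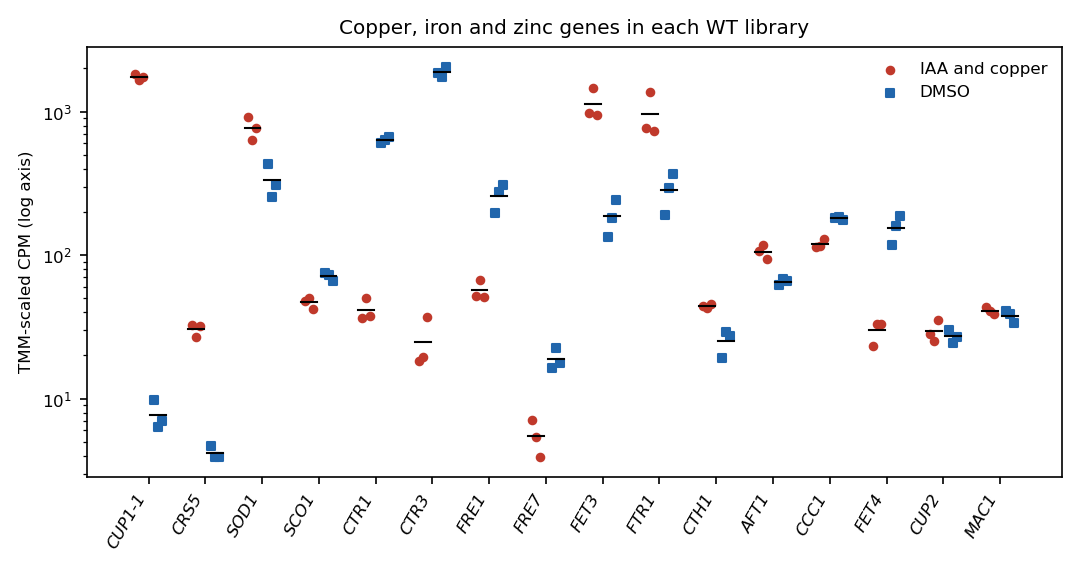
TMM-scaled CPM on a log axis for 16 metal genes, with 1 circle per IAA library, 1 square per DMSO library and a line at each mean (n = 3 per group). Levels may be compared within a gene, not between genes, because CPM is not per length: CUP1-1 sits at 1668 to 1831 CPM with IAA against 6.34 to 9.74 CPM with DMSO, CTR3 shows the opposite order, and the circles and squares of CUP2 and MAC1 overlap.

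The chaperone genes of Hsf1 made up the broadest response: 24 of 30 tested members rose and none fell, with a median of 1.45. The share of all tested genes called higher was 1.68%. When any 1 library was left out 22 to 24 members were called higher: 22 without IAA replicate 2 or DMSO replicate 1, and 22 without both replicate 2 libraries. Co-chaperones and disaggregases were among the largest. SIS1 (YNL007C), an essential Hsp40 of the cytosol and nucleus, was at 385, 319.8 and 380.4 CPM with IAA and 92.8, 74.7 and 72.3 CPM with DMSO (2.18 ± 0.32, adjusted p = 6.47e-06). HSP104 (YLL026W), the cytosolic disaggregase, was at 882, 752 and 794 CPM against 246, 155 and 162 CPM (2.13 ± 0.35, adjusted p = 4.70e-05). In both genes every IAA library was more than 3 times the highest DMSO library. BTN2, which gathers misfolded proteins into deposits, was at 388 to 469.6 CPM against 109 to 116 CPM (1.92 ± 0.36, adjusted p = 3.85e-04). HSP42, a small heat shock protein that also works on aggregates, rose by 1.63 ± 0.29 (adjusted p = 2.15e-04).

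Both Hsp90 genes rose, as did 4 of the 8 partners named here. HSP82 was at 4119.6, 3776 and 4607 CPM with IAA and 1598, 1428 and 1379.9 CPM with DMSO, and its near-identical copy HSC82 was at 3985, 3862 and 3997 CPM against 1230.1, 1168 and 1271 CPM. In these 2 genes the groups were widely separated, with changes of 1.50 ± 0.22 and 1.69 ± 0.22 (adjusted p = 6.88e-06 and 1.06e-06). The co-chaperones CPR6 (2.12 ± 0.27), AHA1 (1.74 ± 0.23), STI1 (1.42 ± 0.23) and HCH1 (0.99 ± 0.21) rose, with adjusted p between 5.67e-07 and 0.00233. Other Hsp90 partners did not pass: CDC37, which loads kinases, changed by 0.12 ± 0.16, SBA1 by 0.18 ± 0.21, CNS1 by 0.02 ± 0.33 and CPR7 by -0.27 ± 0.19 (adjusted p 0.519 to 0.985). HSF1 itself was at 264.6 to 313.2 CPM with IAA and 252.9 to 329.2 CPM with DMSO, with overlapping groups (-0.00 ± 0.16, adjusted p = 0.995).

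All 4 cytosolic Hsp70 genes of the SSA family rose. SSA1 was at 4067, 3704 and 3979 CPM with IAA and 1429.9, 1339 and 1281 CPM with DMSO (1.54 ± 0.25, adjusted p = 3.96e-05). SSA3, a stress-inducible copy, was at 3914, 3679.9 and 3885 CPM against 759, 349.8 and 553 CPM (2.85 ± 0.53, adjusted p = 3.74e-04), and SSA4 rose by 1.21 ± 0.29 (adjusted p = 0.00856). SSA2 was at 283, 494 and 221 CPM against 8.70, 21.2 and 21.2 CPM, the second largest rise (4.30 ± 0.63, adjusted p = 6.88e-06). Reads can be shared among these near-identical genes, so the level assigned to each copy is uncertain. The nucleotide exchange factors SSE1 (1.71 ± 0.25) and FES1 (1.67 ± 0.23) and the Hsp40 YDJ1 (1.37 ± 0.34) rose with them, with adjusted p of 6.88e-06, 2.15e-06 and 0.0134.

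Chaperones of the mitochondrial matrix rose as well. HSP78 (YDR258C), the matrix disaggregase, was at 699, 531 and 626 CPM with IAA and 189.6, 128 and 143 CPM with DMSO (2.02 ± 0.28, adjusted p = 2.07e-06). HSP60, the matrix chaperonin, was at 889 to 1041 CPM against 326 to 374 CPM (1.47 ± 0.23, adjusted p = 2.61e-05), and its partner HSP10 was at 105.2 to 119.0 CPM against 48.8 to 51.1 CPM (1.19 ± 0.23, adjusted p = 7.30e-04). Replicates of HSP60 and HSP10 lay close together beside the gap between the groups. SSC1, the matrix Hsp70, and MDJ1, its Hsp40, rose by 1.35 ± 0.21 and 1.21 ± 0.20 (adjusted p = 2.42e-05 and 7.93e-05).

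**Figure D2:**
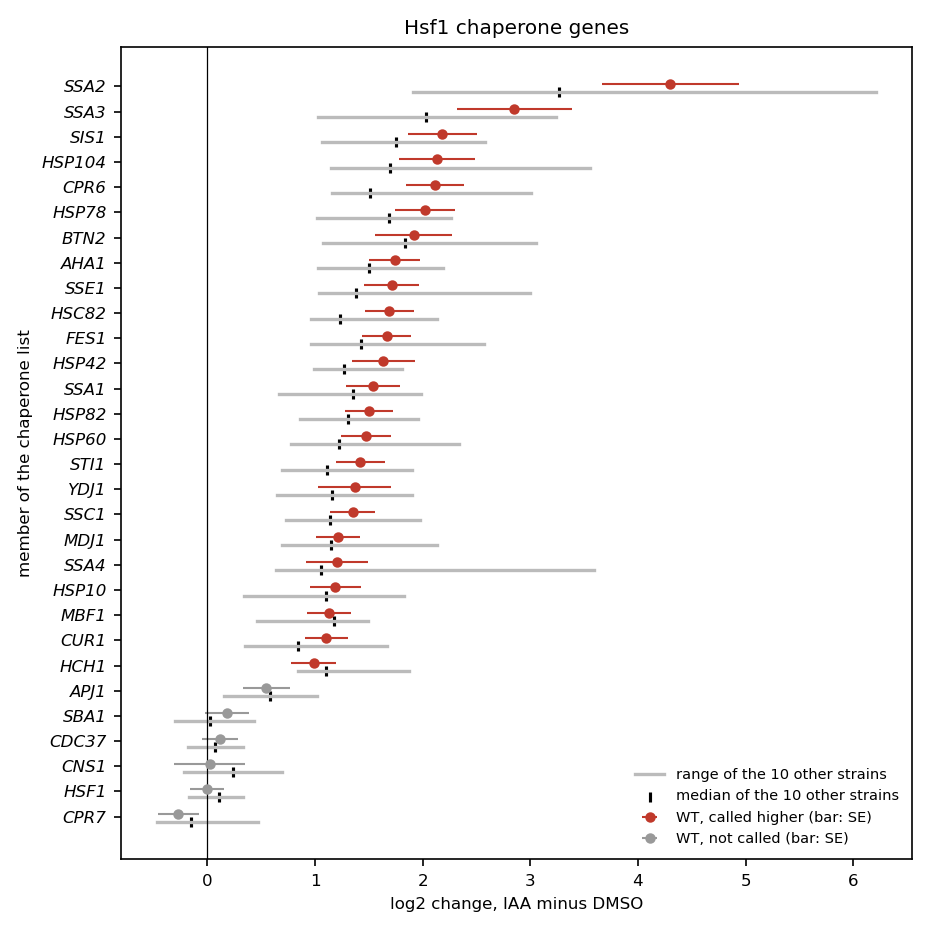
Log2 change with IAA for the 30 tested genes of the chaperone list in WT (circles with SE, red where called higher), with the range (grey line) and median (tick) of the other 10 strains. The 24 called genes lie between 0.99 and 4.30, and HSF1, CDC37, SBA1, CNS1 and CPR7 lie near 0.

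Protein degradation showed few calls. UBC4, a ubiquitin-conjugating enzyme for abnormal proteins, was at 183, 197 and 159 CPM with IAA and 52.9, 81.3 and 63.2 CPM with DMSO (1.46 ± 0.22, adjusted p = 1.55e-05). RPN4, the activator of proteasome genes, was at 652, 636 and 646 CPM against 386, 357 and 335 CPM (0.84 ± 0.16, adjusted p = 3.34e-04). The groups of both genes were well apart, and both kept their calls without any single library. They were the 2 calls among 25 genes of ubiquitin, Cdc48 and proteasome control, whose median was 0.23. Over all tested genes 3.41% were called. UBI4, the stress-induced polyubiquitin gene, was not called (0.27 ± 0.11, adjusted p = 0.216), nor was CDC48 (0.46 ± 0.19, adjusted p = 0.191). None of 33 proteasome subunits was called, with changes of 0.06 to 0.45 and a median of 0.25. All 33 changes were thus positive. In 21 of the subunits every IAA library lay above every DMSO library, where 12% of all tested genes did so. The subunit with the highest level, RPN2, was at 1318 to 1589.8 CPM against 1124 to 1154 CPM (0.37 ± 0.19, adjusted p = 0.334). In the endoplasmic reticulum KAR2, the resident Hsp70, was the 1 call among 24 genes, at 1535, 1664 and 1697 CPM against 944, 959 and 892 CPM (0.81 ± 0.16, adjusted p = 6.75e-04). HAC1, the activator of the unfolded protein response, was not called (0.35 ± 0.13, adjusted p = 0.121).

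Respiratory chain genes were lower: 12 of 43 tested fell and none rose, with a median of -0.50, where 1.73% of all genes were called lower. Every one of the 36 tested subunits of complexes II, III and IV and of ATP synthase had a negative change, and in all 36 the 3 IAA libraries lay below the 3 DMSO libraries, as in 17.5% of all tested genes. Medians were -0.93 over 4 genes of complex II, -0.54 over 8 of complex III, -0.51 over 9 of complex IV and -0.48 over 15 of ATP synthase. The list's 5 single-protein dehydrogenases had a median of 0.06 and no call.

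SDH4, a membrane anchor of succinate dehydrogenase (complex II), was at 268, 271 and 306 CPM with IAA and 627, 576 and 571 CPM with DMSO (-1.07 ± 0.22, adjusted p = 0.00163). COR1, a core subunit of complex III, was at 931, 809 and 955 CPM against 1721, 1593 and 1507 CPM (-0.84 ± 0.20, adjusted p = 0.00810). COX6, of cytochrome oxidase (complex IV), was at 153, 163 and 172 CPM against 309, 285 and 296 CPM (-0.87 ± 0.23, adjusted p = 0.0234). In these 3 genes replicates differed little beside the gap between groups. SDH3, the other membrane anchor of complex II, fell by 0.83 ± 0.23 on the log2 scale (adjusted p = 0.0307). The number of respiratory calls moved with the fit: 2 without IAA replicate 2, 2 without DMSO replicate 1, 3 to 6 without each other library, 2 without both replicate 2 libraries and 20 with the 6 WT libraries alone. SDH4 kept its call without any single library, COR1 lost it without IAA replicate 2 or DMSO replicate 1 (adjusted p 0.0728 and 0.0556), COX6 lost it without any but IAA replicate 3 (adjusted p 0.0675 to 0.105), and SDH3 lost it without each of the 6 (adjusted p 0.0598 to 0.131).

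**Figure D3:**
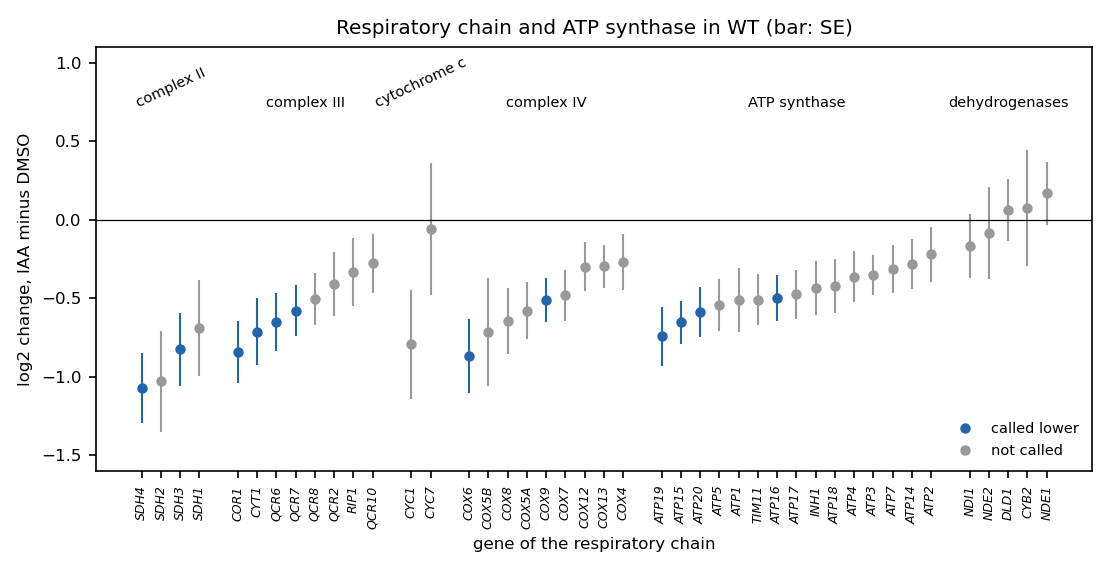
Log2 change with IAA in WT (circle) and its SE (bar) for the 43 tested genes of the respiratory chain list, ordered within each complex. All subunits of complexes II to IV and ATP synthase lie below 0, 12 of them called lower (blue), while the dehydrogenases lie around 0.

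A pair of lists added after the data were seen covers neighbouring steps. In the tricarboxylic acid cycle 5 of 22 genes fell and none rose, with a median of -0.30; 2 of the 5, SDH3 and SDH4, are the complex II genes above. MDH1, mitochondrial malate dehydrogenase, was at 881, 887 and 1055 CPM with IAA and 2026, 2001 and 1872 CPM with DMSO (-1.07 ± 0.19, adjusted p = 2.43e-04). KGD2, a subunit of 2-oxoglutarate dehydrogenase, was at 746, 693 and 797 CPM against 1571, 1508 and 1446 CPM (-1.02 ± 0.19, adjusted p = 2.72e-04). Neither gene's groups came near each other. CIT1, the citrate synthase that opens the cycle, was at 3524, 3535 and 4277 CPM against 6379.6, 6615 and 6297 CPM (-0.77 ± 0.23, adjusted p = 0.0457), and lost its call without each of the 6 libraries in turn (adjusted p 0.0598 to 0.184). Among assembly factors of cytochrome oxidase and the bc1 complex (complex III), 5 of 43 fell and none rose, with a median of -0.18. They were COX26 (-1.37 ± 0.26, adjusted p = 5.65e-04), CBP4 (-0.77 ± 0.14, adjusted p = 2.40e-04), RCF1, CMC2 and SCO1. With 1 library left out, 3 genes of the cycle and 2 to 4 assembly factors were called.

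Mitochondrial carriers held 2 lower calls among 25 genes, where 1.73% of all tested genes were called lower. AAC1, an ADP/ATP carrier of the inner membrane, was at 189, 173 and 277 CPM with IAA and 737, 642 and 632 CPM with DMSO (-1.69 ± 0.20, adjusted p = 8.84e-08). Its paralogue PET9, the major carrier, stood at 1241 ± 34.9 CPM (SD, n = 3) against 1260.2 ± 115 CPM and did not pass (-0.02 ± 0.22, adjusted p = 0.982). ODC1, which exchanges 2-oxodicarboxylates, was at 280.4, 259.9 and 309 CPM against 428, 395 and 431 CPM (-0.57 ± 0.13, adjusted p = 0.00790), and lost its call without IAA replicate 2 (adjusted p = 0.0804). AAC1 kept its call without any single library.

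The glyoxylate bypass moved the other way from the tricarboxylic acid cycle. ICL1, isocitrate lyase, was at 4817, 4217 and 5243 CPM with IAA and 1618, 1504 and 1733 CPM with DMSO (1.55 ± 0.30, adjusted p = 7.15e-04). MLS1, malate synthase, was at 7789, 6072 and 7744 CPM against 3326, 2789 and 3234 CPM (1.20 ± 0.24, adjusted p = 0.00118). Both separated the groups fully and kept their calls without any single library. With CIT1 they were the 3 calls among 24 genes of acetate use, glyoxylate cycle and gluconeogenesis, whose median was -0.08. Over all tested genes 3.41% were called. HXK1, a hexokinase, was the only call among 30 glycolysis and hexose transport genes, at 863, 1319 and 872 CPM against 348, 361 and 430.5 CPM (1.40 ± 0.36, adjusted p = 0.0162). It lost the call without IAA replicate 2 or DMSO replicate 1 or 2 (adjusted p 0.0625 to 0.148).

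Storage carbohydrate genes went in both directions, with 2 higher and 1 lower among 21, where 3.41% of all tested genes were called. GLG2, which primes glycogen chains, was at 179, 156 and 221 CPM with IAA and 397, 364 and 358 CPM with DMSO (-1.02 ± 0.17, adjusted p = 8.95e-05). GAC1, which directs a phosphatase to glycogen synthase, was at 594, 705 and 788 CPM against 417, 352 and 405 CPM (0.82 ± 0.22, adjusted p = 0.0244). TPS3, a regulatory subunit of trehalose synthase, rose by 0.41 ± 0.10 (adjusted p = 0.00768). GLG2 kept its call without any single library. GAC1 lost it without any but IAA replicate 1 (adjusted p 0.0556 to 0.120), and TPS3 lost it without IAA replicate 1 or DMSO replicate 2 or 3 (adjusted p 0.0587 to 0.0846).

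Among 30 fatty acid and phospholipid genes 2 rose and 1 fell, where 3.41% of all tested genes were called. OLE1, the fatty acid desaturase, was at 2827, 4743 and 3782 CPM with IAA and 1142, 905 and 1430.2 CPM with DMSO (1.70 ± 0.36, adjusted p = 0.00252). FAS1, a subunit of fatty acid synthase, was at 2797, 2774 and 3089.8 CPM against 1959, 1123 and 1639 CPM (0.91 ± 0.22, adjusted p = 0.00997). The lowest IAA library was above the highest DMSO library in both. INO4, an activator of phospholipid genes, was at 28.3 to 31.9 CPM against 38.1 to 50.2 CPM (-0.54 ± 0.14, adjusted p = 0.0158). OLE1 lost its call only without both replicate 2 libraries (adjusted p = 0.186), FAS1 without DMSO replicate 2 (adjusted p = 0.134), and INO4 without IAA replicate 2 or DMSO replicate 1 or 3 (adjusted p 0.0666 to 0.128). None of 29 ergosterol genes was called (median 0.08), and the one with the highest level, HMG2, changed by -0.31 ± 0.18 (adjusted p = 0.409).

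Amino acid biosynthesis genes of the Gcn4 regulon held 5 higher calls among 54, with a median of 0.25. Over all tested genes 1.68% were called higher. Branched-chain steps led. BAT1, the mitochondrial branched-chain aminotransferase, was at 1441, 1581 and 1324 CPM with IAA and 569, 678 and 721 CPM with DMSO (1.15 ± 0.32, adjusted p = 0.0298). LEU1, isopropylmalate isomerase, was at 6734, 6558 and 6149.7 CPM against 3076, 3074 and 3254 CPM (1.05 ± 0.25, adjusted p = 0.00976). The groups of both genes were well separated, with little spread among the LEU1 libraries. LEU2, the next enzyme of leucine synthesis, rose by 1.03 ± 0.26 (adjusted p = 0.0158) and ASN2, an asparagine synthetase, by 0.99 ± 0.25 (adjusted p = 0.0141). The labels write the LEU2 locus as leu2::hisG, and its count does not show which allele or part of it was read. The other call was HOM6, homoserine dehydrogenase. GCN4 itself was at 3193 to 3251 CPM against 2959 to 3079 CPM (0.09 ± 0.15, adjusted p = 0.844). With 1 library left out 0 to 3 of these calls were made, 0 of them without IAA replicate 2 and 1 without DMSO replicate 1. LEU1 lost its call without IAA replicate 2 alone (adjusted p = 0.0516), LEU2 without IAA replicate 2 or 3 or DMSO replicate 1 (adjusted p 0.0759 to 0.106), ASN2 without IAA replicate 2 or DMSO replicate 1 (adjusted p 0.129 and 0.130), and BAT1 without each of the 6 (adjusted p 0.0555 to 0.148).

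Nitrogen and sulphur genes had positive medians but no call. For 33 nitrogen use and allantoin genes the median was 0.39. MEP2, an ammonium permease, was at 924, 514 and 313 CPM with IAA and 189, 71.6 and 142 CPM with DMSO, and its wide spread left it short of the threshold (2.09 ± 0.86, adjusted p = 0.20). GDH1, a glutamate dehydrogenase, was at 1539, 1898 and 1318 CPM against 454, 496 and 753 CPM and lay at the edge (1.51 ± 0.45, adjusted p = 0.0506). These 2 genes were picked after their values were seen. GDH2, the list's member with the highest level, changed by -0.24 ± 0.23 (adjusted p = 0.657). For 34 sulphate and methionine genes the median was 0.28, the methionine synthase MET6 changed by 0.70 ± 0.33 (adjusted p = 0.273) and the activator MET4 by 0.21 ± 0.14 (adjusted p = 0.484).

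Lists for responses to a weak aromatic acid such as IAA held few calls. Over all tested genes 1.68% were called higher, and each list exceeded that share on 1 or 2 higher genes. In drug efflux 2 of 28 genes rose. SNQ2, a multidrug pump, was at 231, 236 and 234 CPM with IAA and 115, 116 and 119 CPM with DMSO (1.00 ± 0.22, adjusted p = 0.00299). Its replicates lay within 5 CPM of each other in either group, and it kept its call without any single library but lost it without both replicate 2 libraries (adjusted p = 0.0654). QDR2, a multidrug transporter of the plasma membrane, was at 108 to 133 CPM against 70.8 to 93.3 CPM (0.58 ± 0.16, adjusted p = 0.0298), and lost its call without IAA replicate 1 or 2 or DMSO replicate 1 or 2 (adjusted p 0.0852 to 0.189). The drug activators PDR1 (0.46 ± 0.16, adjusted p = 0.101) and PDR3 (0.50 ± 0.15, adjusted p = 0.0568) were not called, though PDR3 passed under 5 of 16 alternatives.

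In the weak acid response 1 of 13 genes rose. YRO2, a membrane protein induced by acetic acid, was at 331, 243 and 272 CPM with IAA and 107, 83.3 and 97.7 CPM with DMSO (1.55 ± 0.40, adjusted p = 0.0158), and lost its call without IAA replicate 1 or DMSO replicate 2 (adjusted p 0.0911 and 0.0728). The weak acid activators WAR1 (0.04 ± 0.11, adjusted p = 0.925) and HAA1 (0.28 ± 0.14, adjusted p = 0.316) were not called. In aromatic amino acid breakdown and indole acetate synthesis 1 of 16 genes rose and 1 fell. AVT4, a vacuolar amino acid exporter, was at 223 to 232 CPM against 141 to 178 CPM (0.53 ± 0.14, adjusted p = 0.0242), and ALD2, an aldehyde dehydrogenase, was at 251, 189 and 266 CPM against 438, 359 and 372 CPM (-0.74 ± 0.18, adjusted p = 0.0117). AVT4 lost its call without any library but DMSO replicate 1 (adjusted p 0.0543 to 0.153), and ALD2 without IAA replicate 2 or DMSO replicate 1 (adjusted p 0.148 and 0.0971).

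Auxin is known to promote adhesion and filamentous growth in yeast, and 14 genes of adhesins and their activators were tested. Over all tested genes 3.41% were called. MGA1, a regulator of filamentous growth, was the only call, at 111, 117 and 129 CPM with IAA and 27.6, 32.9 and 31.6 CPM with DMSO (1.95 ± 0.40, adjusted p = 0.00118). The groups were more than 3-fold apart, and the call held without any single library. FLO11, the main adhesin, was at 11667, 9552 and 9981 CPM against 12864, 8162 and 9148 CPM, with overlapping groups (0.07 ± 0.25, adjusted p = 0.942).

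Redox and general stress lists held few calls and had medians between -0.06 and 0.04. Over all tested genes 3.41% were called, and each of these lists exceeded that share on 1 to 3 calls. Thiol and peroxide defence had 2 higher and 1 lower call among 34, with a median of -0.06. AHP1, a peroxiredoxin, was at 233, 149 and 199.7 CPM with IAA and 106, 53.7 and 70.7 CPM with DMSO (1.37 ± 0.37, adjusted p = 0.0226). TRR1, thioredoxin reductase, rose by 0.32 ± 0.10 (adjusted p = 0.0492), and GRX4, a glutaredoxin of iron sensing, fell by 0.56 ± 0.15 on the log2 scale (adjusted p = 0.0286). AHP1 lost its call without IAA replicate 1 or 3 or DMSO replicate 2 or 3 (adjusted p 0.0693 to 0.153), TRR1 without any but IAA replicate 3 (adjusted p 0.0625 to 0.351) and GRX4 without each of the 6 (adjusted p 0.0670 to 0.119). The activator YAP1 was not called (0.31 ± 0.18, adjusted p = 0.409).

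Yap1 and Stb5 detoxification enzymes had 1 call among 20, AAD4, an aryl-alcohol dehydrogenase (-0.51 ± 0.14, adjusted p = 0.0197), which lost it without IAA replicate 2 or any DMSO library (highest adjusted p 0.207). Of 28 general stress genes of Msn2 and Msn4, HXK1 rose and ALD2 fell, and the median was 0.04. The activators MSN2 (0.10 ± 0.13, adjusted p = 0.758) and MSN4 (0.53 ± 0.25, adjusted p = 0.273) were not called. SIP18, a dehydration gene of that list picked after its values were seen, was at 34.1, 16.6 and 50.0 CPM against 209, 84.4 and 115 CPM and missed the threshold (-2.05 ± 0.65, adjusted p = 0.0643).

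Lists of growth and of the meiotic programme held almost no calls. None of 126 cytoplasmic ribosomal protein genes was called, yet 123 of them had a positive change and the list median was 0.48. Replicates differed widely in this group: RPL3, its member with the highest level, was at 889.8, 1674 and 825 CPM with IAA and 448, 1221 and 1006 CPM with DMSO (0.40 ± 0.52, adjusted p = 0.773). The libraries of IAA replicate 2 and DMSO replicate 2 were the highest of their groups, and DMSO replicate 1 the lowest. None of 105 ribosome biogenesis genes (median 0.08) or 76 mitochondrial ribosomal protein genes (median -0.08) was called. DBP2, the biogenesis member with the highest level, changed by 0.45 ± 0.87 (adjusted p = 0.866). MRP8, the entry with the highest level in the mitochondrial list, changed by 0.02 ± 0.23 (adjusted p = 0.982). Whether MRP8 is part of the mitochondrial ribosome was not examined.

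None of 34 early meiosis genes was called, with 32 negative changes and a median of -0.40. In 23 of them every IAA library lay below every DMSO library, where 17.5% of all tested genes did so. IME2, a meiotic protein kinase, was at 1796, 1802 and 2386 CPM with IAA and 2986, 3001 and 3002 CPM with DMSO. IME1, the master regulator of entry into meiosis, was at 4429, 3826 and 4607 CPM with IAA and 3922, 3358 and 3020.0 CPM with DMSO (0.32 ± 0.16, adjusted p = 0.288), while NDT80, which drives the middle phase, was at 49.6, 43.5 and 108 CPM against 96.0, 92.0 and 139 CPM (-0.80 ± 0.70, adjusted p = 0.619). The groups of IME1 and of NDT80 overlapped. Of 36 middle and late sporulation genes 1 fell, with a median of -0.24: CRR1, a spore wall protein, was at 87.1, 92.5 and 109.6 CPM against 202, 188 and 206 CPM (-1.05 ± 0.26, adjusted p = 0.0130). CRR1 lost its call without IAA replicate 1 or 2 or DMSO replicate 1 or 3 (adjusted p 0.0521 to 0.0686). It was called lower in 8 of the other strains. CRR1 (YLR213C) is the divergent neighbour of the copper uptake gene FRE1 (YLR214W), which fell by more (-2.18). In the reference assembly the Mac1 word begins 382 and 365 bases before the CRR1 start. The words printed above for FRE1 begin 286 and 269 bases before its own start. Whether the fall of CRR1 belongs to sporulation or to the copper genes was not tested. None of 7 genes of the m6A writer and reader was called (median -0.34), with SLZ1 at -0.56 ± 0.31 (adjusted p = 0.370).

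The next lists held 1 call each, which is no result about the list: over all tested genes 3.41% were called. Of 10 histone genes HTZ1, the H2A.Z variant, fell, from 153, 145 and 122 CPM with DMSO to 81.2, 77.6 and 84.2 CPM with IAA (-0.78 ± 0.20, adjusted p = 0.0173). Of 38 mRNA decay factors DCP2, the catalytic subunit of the decapping enzyme, rose, from 172 to 184 CPM with DMSO to 211 to 227 CPM with IAA (0.30 ± 0.09, adjusted p = 0.0431), and of 32 cell wall genes CWP2, a mannoprotein, fell (-0.75 ± 0.19, adjusted p = 0.0145). HTZ1 lost its call without IAA replicate 1 or 2 or DMSO replicate 1 or 2 (adjusted p 0.0610 to 0.105), CWP2 without IAA replicate 2 or DMSO replicate 1 or 2 (adjusted p 0.0540 to 0.110) and DCP2 without each of the 6 (adjusted p 0.0750 to 0.156). The remaining lists had no call: phosphate starvation, 19 genes with a median of -0.13 (PHO8 0.03 ± 0.14, adjusted p = 0.957), autophagy, 28 genes at -0.10 (PRB1 -0.22 ± 0.18, adjusted p = 0.592), and thiamine, pyridoxine and biotin, 20 genes at -0.27 (SNZ1 -0.40 ± 0.20, adjusted p = 0.307).

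**Figure D4:**
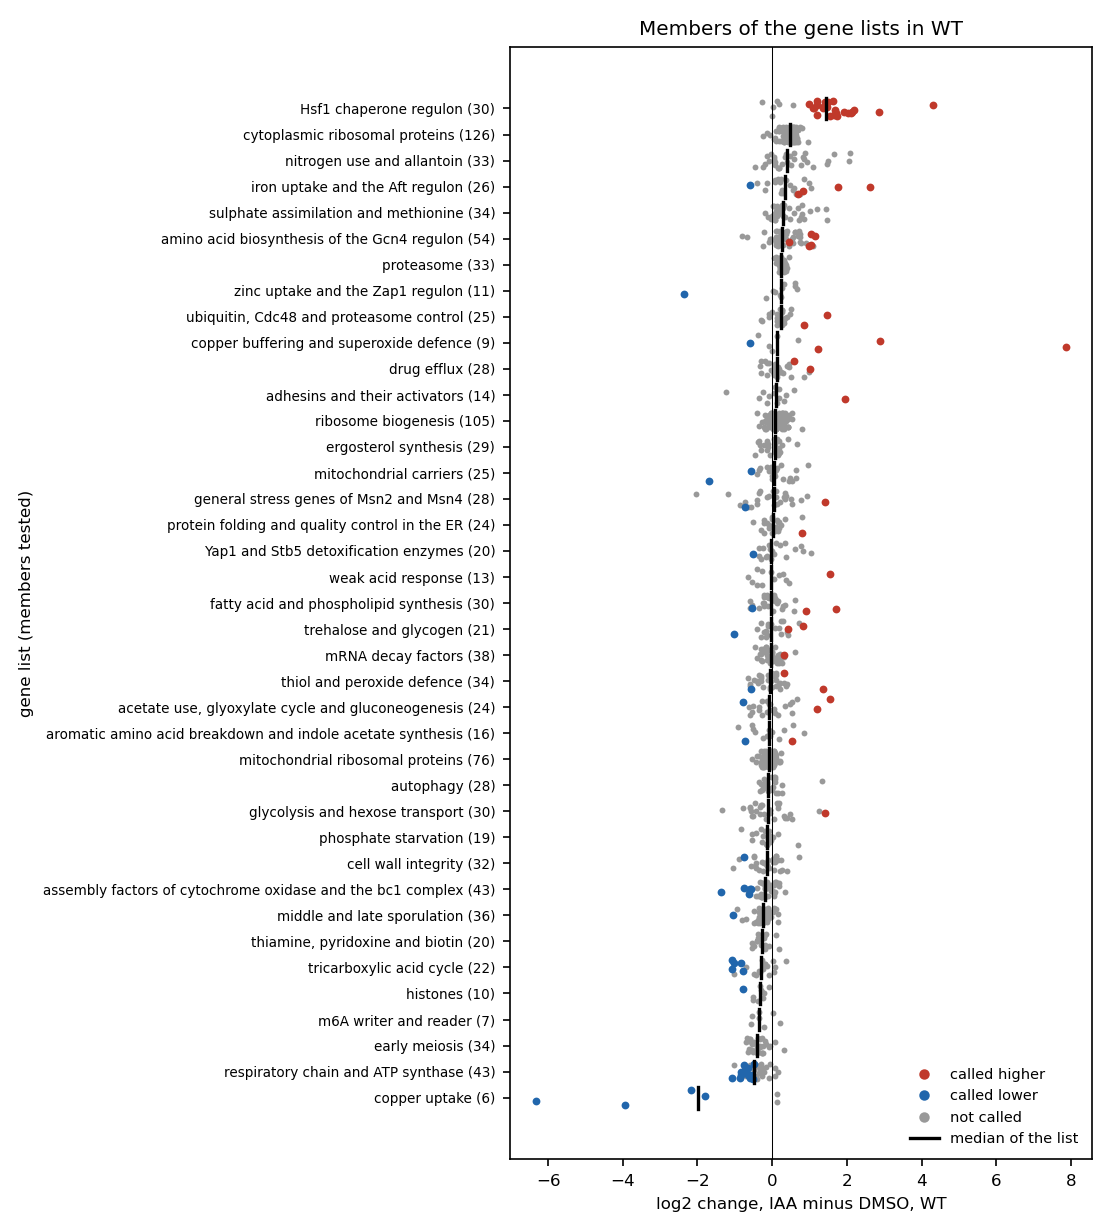
Log2 change with IAA in WT for each tested member of the 37 lists and the 2 added ones (points, red where called higher and blue where called lower), with a bar at each list's median and lists ordered by it. The chaperone list has the highest median at 1.45 and copper uptake the lowest at -1.99, while the medians of the other lists lie between -0.50 and 0.48.

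The largest falls outside the metal genes included genes of none of the 37 lists. RGI2, known for its induction under respiratory growth, was at 909, 782 and 1219 CPM with IAA and 4621, 3769.9 and 3719 CPM with DMSO (-2.08 ± 0.56, adjusted p = 0.0237). COX26, a small protein bound to cytochrome oxidase, was at 105, 97.2 and 106 CPM against 293, 250.2 and 250.5 CPM. CRG1, a methyltransferase, was at 111, 87.0 and 140.4 CPM against 263, 238 and 251 CPM (-1.18 ± 0.22, adjusted p = 3.56e-04). In all 3 every IAA library was well below the lowest DMSO library. SHH3, a homologue of the succinate dehydrogenase anchor SDH3, fell by 1.59 ± 0.41 on the log2 scale (adjusted p = 0.0165), while IRC7, a cysteine-conjugate lyase, changed by -1.58 ± 0.43 (adjusted p = 0.0259) and YNL058C by -1.24 ± 0.30 (adjusted p = 0.00887). COX26 and CRG1 kept their calls without any single library. RGI2 lost it without any but IAA replicate 3 (adjusted p 0.0737 to 0.122), IRC7 without IAA replicate 1 or 3 or DMSO replicate 2 or 3 (adjusted p 0.0660 to 0.189), SHH3 without IAA replicate 2 or DMSO replicate 1 (adjusted p 0.189 and 0.134) and YNL058C without IAA replicate 2 (adjusted p = 0.121).

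A few rises outside the lists, picked after their values were seen, fall in translation, the cytoskeleton and protein handling. TEF2, elongation factor 1 alpha, was at 8294, 8488 and 7922 CPM with IAA and 3910.4, 4392 and 4491 CPM with DMSO (0.95 ± 0.19, adjusted p = 7.30e-04), whereas its duplicate TEF1 was not called (0.18 ± 0.32, adjusted p = 0.854). The duplicates share most of their sequence, so the split between them is uncertain. ACT1, actin, was at 1619.7, 1491 and 1550.3 CPM against 927, 957 and 904 CPM (0.74 ± 0.14, adjusted p = 3.85e-04). SGT2, which passes tail-anchored proteins to the membrane insertion machinery, rose by 1.15 ± 0.22 (adjusted p = 5.90e-04), and OPI10, a conserved protein of the Hikeshi family, by 1.46 ± 0.32 (adjusted p = 0.00290). APA1, diadenosine tetraphosphate phosphorylase, was at 112, 131 and 112 CPM against 38.7, 54.6 and 51.4 CPM (adjusted p = 7.20e-06). RTS3 rose by 1.39 ± 0.25 (adjusted p = 1.81e-04) and RGS2, a regulator of a glucose-sensing G protein, by 1.03 ± 0.14 (adjusted p = 2.44e-06).

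The other 10 strains received the same additions and have their own DMSO libraries, so they share no control with WT. They do share the fit, in which the spread of each gene was estimated once over all 66 libraries. A gene of small spread is thus called more readily in every strain. The share over all genes is therefore not a full background for the genes called in WT. Of the 98 genes higher in WT, 23 were called higher in all 10 other strains and 69 in at least 5, and of the 101 lower genes 5 were called lower in all 10 and 52 in at least 5. Only 2 of the 98 and 0 of the 101 were called in no other strain. The change had the same sign in all 10 strains for 83 and 66 genes. Each strain's own share of calls over all genes stands beside its count. In the strains of the deadenylation factors and PAB1, 79.6% of the higher genes were called higher in PAB1 (8.15% of all genes), 74.5% in POP2 (16.7%), 65.3% in CAF40 (4.74%) and 59.2% in NOT5 (6.14%). The lower genes were called lower at 73.3% in PAB1 (14% of all genes), 71.3% in POP2 (19.5%), 62.4% in CAF40 (3.07%) and 45.5% in NOT5 (4.08%). Every one of these shares was several times its background. Among the exonuclease strains, 75.5% of the higher genes were called higher in RAT1 (7.04%), 67.3% in XRN1 (5.35%) and 52% in RRP6 (2.59%), and the lower genes were called lower at 39.6% in RAT1 (13%), 50.5% in XRN1 (3.5%) and 56.4% in RRP6 (2.02%). Among the decapping strains the higher genes were called at 63.3% in LSM1 (8.13%), 44.9% in DCP2 (1.1%) and 40.8% in PAT1 (1.06%), and the lower genes at 57.4% in LSM1 (10.4%), 23.8% in DCP2 (0.704%) and 7.92% in PAT1 (0.275%). The strains with the fewest calls of their own, DCP2 and PAT1, also called the fewest WT genes. The 121 genes shared with at least 5 strains were 74 without IAA replicate 2, 77 without DMSO replicate 1 and 60 without both replicate 2 libraries.

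The copper genes and the chaperones carried most of what was shared by every strain. CUP1-1 was higher in all 10, with changes of 5.59 to 8.50, and CTR3 lower in all 10, with -6.77 to -3.99. SIS1, HSP104 and HSP78 were also called in all 10, with medians of 1.76, 1.69 and 1.69, and AAC1 was lower in all 10 with a median of -2.01. At the other end, OLE1 was called in 1 of the 10 (median 0.79, range 0.15 to 1.55), HXK1 in 1 (median 0.63, range -0.54 to 1.28) and LEU1 in 1 (median 0.52). YRO2 was called in all 10, with a median of 2.61 against 1.55 in WT. A direct test of the WT change against the mean change of the other strains called 0 genes by limma, with 103 (1.77%) at an unadjusted p under 0.05. With a replicate block that test called 1 gene, YRO2 (-1.04, adjusted p = 4.99e-04).

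**Figure D5:**
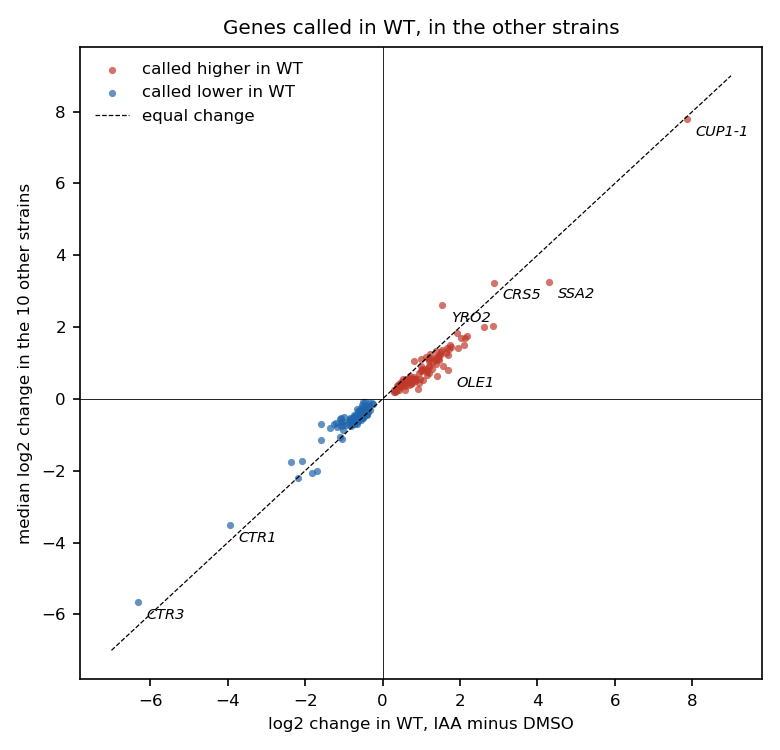
Log2 change with IAA in WT (x axis) against the median log2 change over the 10 other strains (y axis) for the 199 genes called in WT, 1 point per gene, with a dashed line of equal change. Points follow the line from CTR3 at -6.31 to CUP1-1 at 7.85, with OLE1 and SSA2 below it and YRO2 above it.

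The upstream sequences of the called genes were searched for 13 short sequence words known from yeast regulators, on both strands from 250 bases before to 50 bases after the annotated start in R64. The heat shock element of Hsf1 was in 13 of 95 higher genes with a promoter in the reference (13.7%), in 0 of 99 lower genes and in 45 of 5515 tested genes (0.816%). Of the 30 chaperone genes 8 held it (26.7%). SIS1 and HSP104 hold theirs farther upstream, at the places printed above. With 500 bases before the start, a window chosen after the data were seen, the shares were 20.0% of higher genes, 4.04% of lower genes and 1.52% of all genes, and 43.3% of the chaperone list. The Mac1 word TTTGCTC was in 11.1% of lower genes, 5.26% of higher genes and 5.53% of all genes, and the Cup2 word TTTGCTG in 7.07%, 6.32% and 6.73%. With the 500-base window the Mac1 word was in 15.2%, 8.42% and 9.74% of the same groups and the Cup2 word in 9.09%, 16.8% and 11.9%. The stress word AGGGG was in 24.2% of higher genes, 19.2% of lower genes and 22.0% of all genes. The Aft1 word TGCACCC was in 2.11% of higher genes against 1.29% of all genes. The Yap1 word TTACTAA was in 5.26% of higher genes and 7.96% of all genes, and the Gcn4 word TGACTCA in 4.21% and 2.85%. The proteasome-associated control element of Rpn4 was in 3.16% of higher genes and 1.27% of all genes. The Ume6 word GGCGGC was in 7.07% of lower genes, 5.26% of higher genes and 4.81% of all genes, and in 16.7% of the chaperone list. With the 500-base window it was in 17.2% of lower, 8.42% of higher and 10.3% of all genes. In lower, higher and all genes the Cbf1 word CACGTG was in 2.02%, 2.11% and 3.01%. The word GATAAG of the nitrogen regulators of the GATA family was in 15.2%, 15.8% and 14.7%. The Ndt80 word CACAAA was in 20.2%, 20% and 19.3%. The pleiotropic drug response element of Pdr1 and Pdr3 was in 0%, 0% and 0.218%.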

How the data were processed

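Poly(A) RNA was sequenced from 66 libraries, 22 groups of 3. Per the submitters' processing notes, STAR 2.7.10a, RSEM 1.3.1 and DESeq2 1.48.1 were used; their roles and the genome build are not given in the sources used here. The deposited table of the authors holds principal component score lines and, below a second header, whole-number counts per gene. Only the count lines were fitted. A count model was not chosen because score and count lines share columns, but the count lines taken alone do not rule one out. A further 6 per-sample columns of no listed sample were left unused.

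Counts were scaled by TMM (trimmed mean of M values) factors computed here. Genes with at least 0.484 CPM (10 counts in the median library) in 3 libraries and 15 counts in total were kept, 5828 of 6171. Log2 CPM (pseudocount 0.5) was fitted with limma 3.58.1 and voom weights in R 4.3.3, with 1 mean per group over all 66 libraries. P-values were Benjamini-Hochberg adjusted over all genes and called under 0.05. A fold change on this scale understates that of low genes. CPM values printed are TMM-scaled, and errors of log2 changes are SEs with n = 3 per group. On simulated counts for 5828 genes with 200 changed, the fit called 83% of changes of 1 and 92% of those of 2 on the log2 scale, and 4.37% of its calls were false. The simulated counts were drawn independently, with the same spread for a gene in every group. They held no difference like that of the replicate 2 libraries, so 4.37% is not an error rate for the calls in WT.

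The 37 gene lists, their members and the tests were chosen with earlier results of these data known, and 2 further lists were added after seeing the data. Genes were named by a rule: called genes with a mean of at least 10 CPM and groups that do not overlap, taking the 12 largest rises and falls and up to 4 per list, plus a set of regulators and the most abundant member of each list without a call. Other genes named were picked after their values were seen. RefSeq entries matched 5626 genes (91.2%), and 4 list symbols had no match. Alternatives covered scaling, filters, the pseudocount, the weights, the libraries fitted, each left-out library and a replicate block. Within-group libraries differed by more than sampling noise (chi-square per degree of freedom 24.1 to 114), so all were counted separately.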

Additional observations from a re-analysis of the deposited data

How the results depend on the processing

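Calls depended on the libraries and the model more than on scaling. With 1 library left out, 85 to 148 genes were called, 60 to 82 higher and 25 to 66 lower, and 74 to 101 of them were shared with at least 5 other strains. Without both replicate 2 libraries, an alternative chosen after seeing the data, 62 were called (45 higher, 17 lower), 60 of them shared with at least 5 strains. Requiring at least a 2-fold change left 73 genes and an adjusted p under 0.01 left 82. The 6 WT libraries alone gave 246 (151 higher), of which 143 were also among the 199. Scaling, filter, weight and pseudocount alternatives gave 183 to 215, and they moved the median of all genes by less than 0.1.

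The replicate numbers were not taken to pair the libraries: residuals of same-numbered IAA and DMSO libraries correlated at -0.159 to 0.527, over 0.1 in 2 of 3 pairs, and IAA replicate 3 correlated best with DMSO replicate 1 (0.431). With a replicate block 798 genes were called (340 higher, 458 lower), 478 of them shared with at least 5 strains. The block with the WT libraries alone called 249 (154 higher). The test of WT against the other strains then called 1 gene, YRO2, whose change was -1.04 relative to their mean (adjusted p = 4.99e-04). No called named gene changed direction under any alternative, whereas PHO8, RPL3, MRP8, DBP2, CUP2, HSF1 and WAR1, none of them called, changed sign in some. The causes were not tested.

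Each group has 3 libraries of one strain, so changes in genes with wide replicate spread, such as ribosomal protein genes, were not detectable at this size. The design cannot separate IAA from copper. Lists were described by counts and medians only.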

Other observations

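The marker genes of the genotype were read from the same libraries. LEU2, written as leu2::hisG in the labels, stood at 575 to 733 CPM in the DMSO libraries and 1101 to 1542 CPM in the IAA libraries. TRP1, written as trp1::hisG, was at 33.6 to 47.1 CPM, URA3 at 365 to 448 CPM and LYS2 at 236 to 372 CPM over the 6 libraries. HIS3 and HO were not analysed here. A count at a gene does not show which allele or part of it was read.

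Other called genes outside the 37 lists, picked after their values were seen, belong to glycine breakdown and haem synthesis: GCV1 (-0.62), GCV3 (-0.62) and HEM3 (-0.51) fell on the log2 scale. PMC1, the vacuolar calcium pump, rose by 0.71, and DED1, an RNA helicase of translation initiation, by 0.71. CPR1, NPL3 and YNK1 were also called (1.19, 0.85 and -0.67), but each overlaps another annotated gene, and the split of reads between the partners is uncertain.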
